A study of Mus musculus with 18 samples.

Results

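The annexins are a family of cytosolic proteins that bind phospholipid membranes when calcium rises. The family members Anxa1, Anxa2, Anxa3, Anxa4, Anxa5, Anxa6, Anxa7, Anxa8 and Anxa11, were taken by name from the gene count tables, which made 9 of 24062 genes. All 9 passed the filter on low counts, which kept 12140 genes for testing. The cells were mouse NIH3T3 fibroblasts of the wild-type line (WT) or of the line NIH3T3-mCherry-mTRIM21 (TRIM21), which carries mouse TRIM21, an antibody-binding ubiquitin ligase, joined to the red fluorescent protein mCherry. Each line was electroporated with PBS, with bovine serum albumin (BSA) or with an antibody (IgG, ab18447), which gave 6 groups of 3 samples. Per the labels' protocols, cells in 100 µl received 2 pulses of 20 ms at 1400 V. The BSA and IgG groups received 7.5 µg of the protein, and RNA was taken after 16 h in medium with 10% calf serum. All 18 samples were electroporated, and no sample without a pulse was analysed here, so the values say nothing of what electroporation itself does. The line comparison sets 1 derived line against its parent. The labels do not say that samples of a group came from separate cultures, so p-values measure only the spread between these samples.

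An electric pulse opens the plasma membrane and lets calcium in. Annexins are known to move to such lesions, to cover or clamp their edges and to help fuse or shed damaged membrane, beside the ESCRT machinery, dysferlin-type proteins and caveolae. They also act outside the cell, where Anxa1 signals through formyl peptide receptors and Anxa2 binds plasminogen together with S100a10. Transport to a lesion is a step of proteins already made, whereas the counts here measure mRNA.

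Gene counts summed to 19509017 to 29766433 per sample, and 13.1% to 18.8% of reads were assigned to no gene feature. Values in CPM (counts scaled to a library of 1e+06) use TMM-scaled library sizes. Trim21, the check of the line labels, stood at 1038 ± 63.6 CPM in the TRIM21 line (SD, n = 9) and 8.02 ± 1.13 CPM in the WT line (SD, n = 9). By their mean over the 18 samples, all 8 fibroblast markers were at 1 CPM or more, and none of 4 epithelial, 4 endothelial or 4 skeletal muscle markers was, although the endothelial marker Cdh5 reached 2.15 CPM in 1 TRIM21 PBS sample. Of 4 leukocyte markers only Cd68 had a mean of 1 CPM or more, with Emr1 and Cd3e at 0. The sample titles end in a number, 10, 11 or 14, and each number occurs once in every group. The labels do not say what the number stands for, and it is called the title number here. In the principal component analysis the TRIM21 PBS sample numbered 11 had the most extreme score on the first component (-46.1) and the lowest fibroblast marker sum of the 18. Results that it moved by over 1.5 times or across the threshold are therefore given with and without it, where the second value was available.

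The promoters of the strongest members and of the weakest are shown first, because they mark the ends of the level order that follows. RefSeq start sites on GRCm38.p6 gave 9 promoters for 7 of the 9 genes. Each line holds the 100 bases before the start, 5′ to 3′ on the gene's strand, and capitals mark matches to the motifs searched on both strands. These were TATAAA in the 100 bases shown, and TGANTCA (the AP-1 motif) and GGGCGG (the GC box core) in the 250 bases before the start.
Anxa2 (chr9:69453583-69453682, plus strand): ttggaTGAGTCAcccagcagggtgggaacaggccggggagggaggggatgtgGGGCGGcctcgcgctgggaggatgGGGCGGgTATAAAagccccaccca
Anxa1 (chr19:20390672-20390771, minus strand): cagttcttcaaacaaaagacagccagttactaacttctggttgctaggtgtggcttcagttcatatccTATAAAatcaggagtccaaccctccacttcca
Anxa5 (chr3:36475888-36475987, minus strand): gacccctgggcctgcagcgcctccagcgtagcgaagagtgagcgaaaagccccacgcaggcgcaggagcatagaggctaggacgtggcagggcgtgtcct
Anxa8 (chr14:34085879-34085978, plus strand): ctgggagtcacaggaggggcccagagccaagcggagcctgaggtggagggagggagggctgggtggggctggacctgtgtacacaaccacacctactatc
The Anxa2 promoter held all 3 motifs, with TATAAA beginning 17 bases before the start, TGAGTCA 95 bases before it and 3 matches to GGGCGG. The Anxa1 promoter held TATAAA 32 bases before the start and neither other motif. None of the 3 motifs lay in the Anxa5 or Anxa8 windows or in the 2 Anxa4 promoters, whereas Anxa11 had 3 matches to GGGCGG and both Anxa7 promoters had at least 1. Over 32851 mouse promoters, 5.56% held TATAAA, 6.75% TGANTCA and 32.7% GGGCGG in windows of those lengths. These matches describe letters only, and no motif was held by all of Anxa2, Anxa5 and Anxa1. By GENCODE M21 the gene start lay inside the window shown for Anxa2 (69453620) and Anxa5 (36475894). For Anxa1 it lay upstream of the window (20390944). For these genes, positions before the start therefore refer to the RefSeq start only.

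Annexin mRNA made up 0.463% to 0.553% of the gene counts of a sample. The share was 0.485% to 0.549% in the TRIM21 line and 0.463% to 0.553% in the WT line, so the ranges overlapped. To compare genes, CPM was divided by the length of each gene's merged exons in kilobases, and the following levels are on that scale as mean ± SD over all 18 samples. Anxa2, which forms a complex with S100a10 at the plasma membrane, was highest at 788.1 ± 69.2 and took 48.3% of the summed annexin level. Anxa5, which binds exposed phosphatidylserine and assembles into sheets on membrane, followed at 394.4 ± 31.7. Anxa1, the formyl peptide receptor ligand, came next at 251.2 ± 22.0. These 3 genes did not overlap one another in level in any sample, and together they stood above every other member.

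Anxa6, the member with a duplicated annexin core, reached 85.8 ± 8.35, and Anxa3 reached 55.1 ± 12.8. Their ranges overlapped, from 74.4 to 102.9 for Anxa6 and from 40.2 to 93.5 for Anxa3, although Anxa6 was above Anxa3 in 17 of 18 samples. Anxa4, a membrane-binding member best known from epithelia, stood at 25.3 ± 1.69. Anxa7, also called synexin, stood at 22.3 ± 0.909. This pair overlapped too, with Anxa4 above Anxa7 in 16 of 18 samples. Anxa11, which has a long N-terminal tail that binds the calcium sensor Pdcd6, followed at 9.20 ± 0.923. Anxa8 was lowest at 1.30 ± 0.329, so that Anxa2 exceeded it 606.3-fold per kilobase. Anxa8 rested on 43 to 88 counts a sample, the least of the 9, and its counting error is correspondingly the largest.

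**Figure D1:**
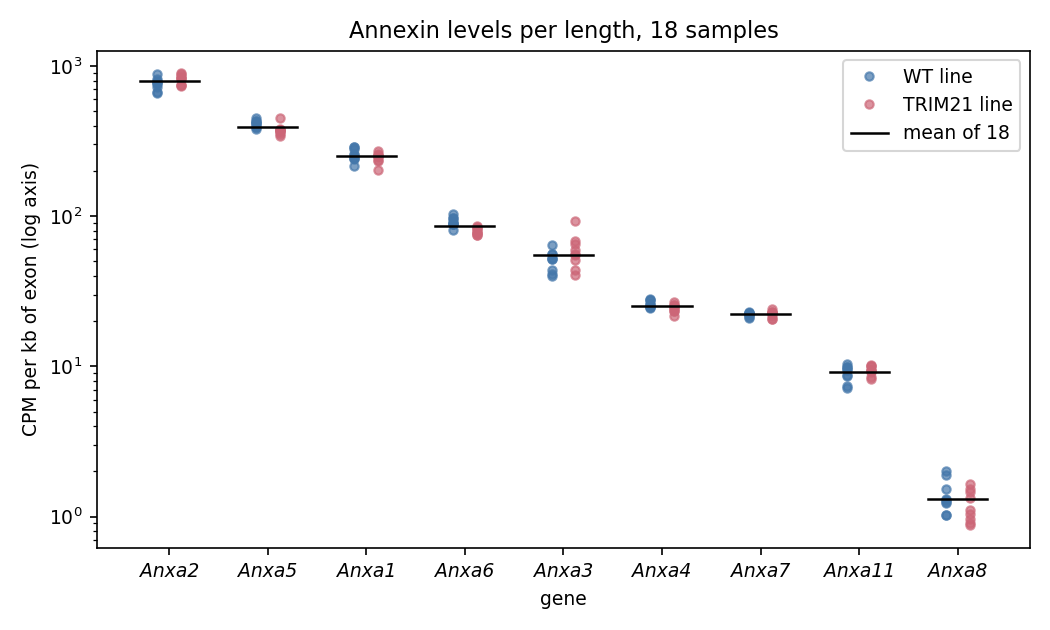
Level of each annexin in CPM per kilobase of merged exons, on a log axis, with 1 point per sample coloured by line and a bar at the mean of 18. Anxa2, Anxa5 and Anxa1 lie apart from the rest, the pairs Anxa6 with Anxa3 and Anxa4 with Anxa7 overlap, and Anxa8 lies lowest at a mean of 1.30.

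The order depended in part on the length used. With the longest annotated transcript as the length, Anxa1 (436.8) stood above Anxa5 (404.9), Anxa3 (125.8) above Anxa6 (101.0) and Anxa7 (45.9) above Anxa4 (44.7). Anxa2, Anxa11 and Anxa8 kept their places. All 9 genes are annotated as protein coding on GRCm38. Anxa2 lies at chr9:69453620-69491795 on the plus strand, Anxa6 at chr11:54979108-55033445 on the minus strand, Anxa3 at chr5:96793339-96845966 on the plus strand, and Anxa8 at chr14:34085981-34100571 on the plus strand. Anxa7 and Anxa11 lie on chromosome 14 as well, Anxa1 on 19, Anxa4 on 6 and Anxa5 on 3. Exons of Anxa2, Anxa4 and Anxa11 overlap those of genes on the opposite strand by 98, 75 and 113 bases, and Anxa3 overlaps a gene on its own strand by 112 bases. The strand setting of the counting is not given in the sources used here, so reads in the opposite-strand stretches cannot be assigned to one gene with certainty. For the Anxa3 stretch no strand setting would separate the 2 genes. None of these overlapping genes is listed among the counted genes.

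Members also differed in how steady they were. The SD of log2 CPM over 18 samples was smallest for Anxa7 (0.059) and largest for Anxa8 (0.34) and Anxa3 (0.31), against a median of 0.19 over all genes tested. Anxa7, which drives granule membrane fusion in vitro, lay between 124 and 144.3 CPM in every sample.

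**Figure D2:**
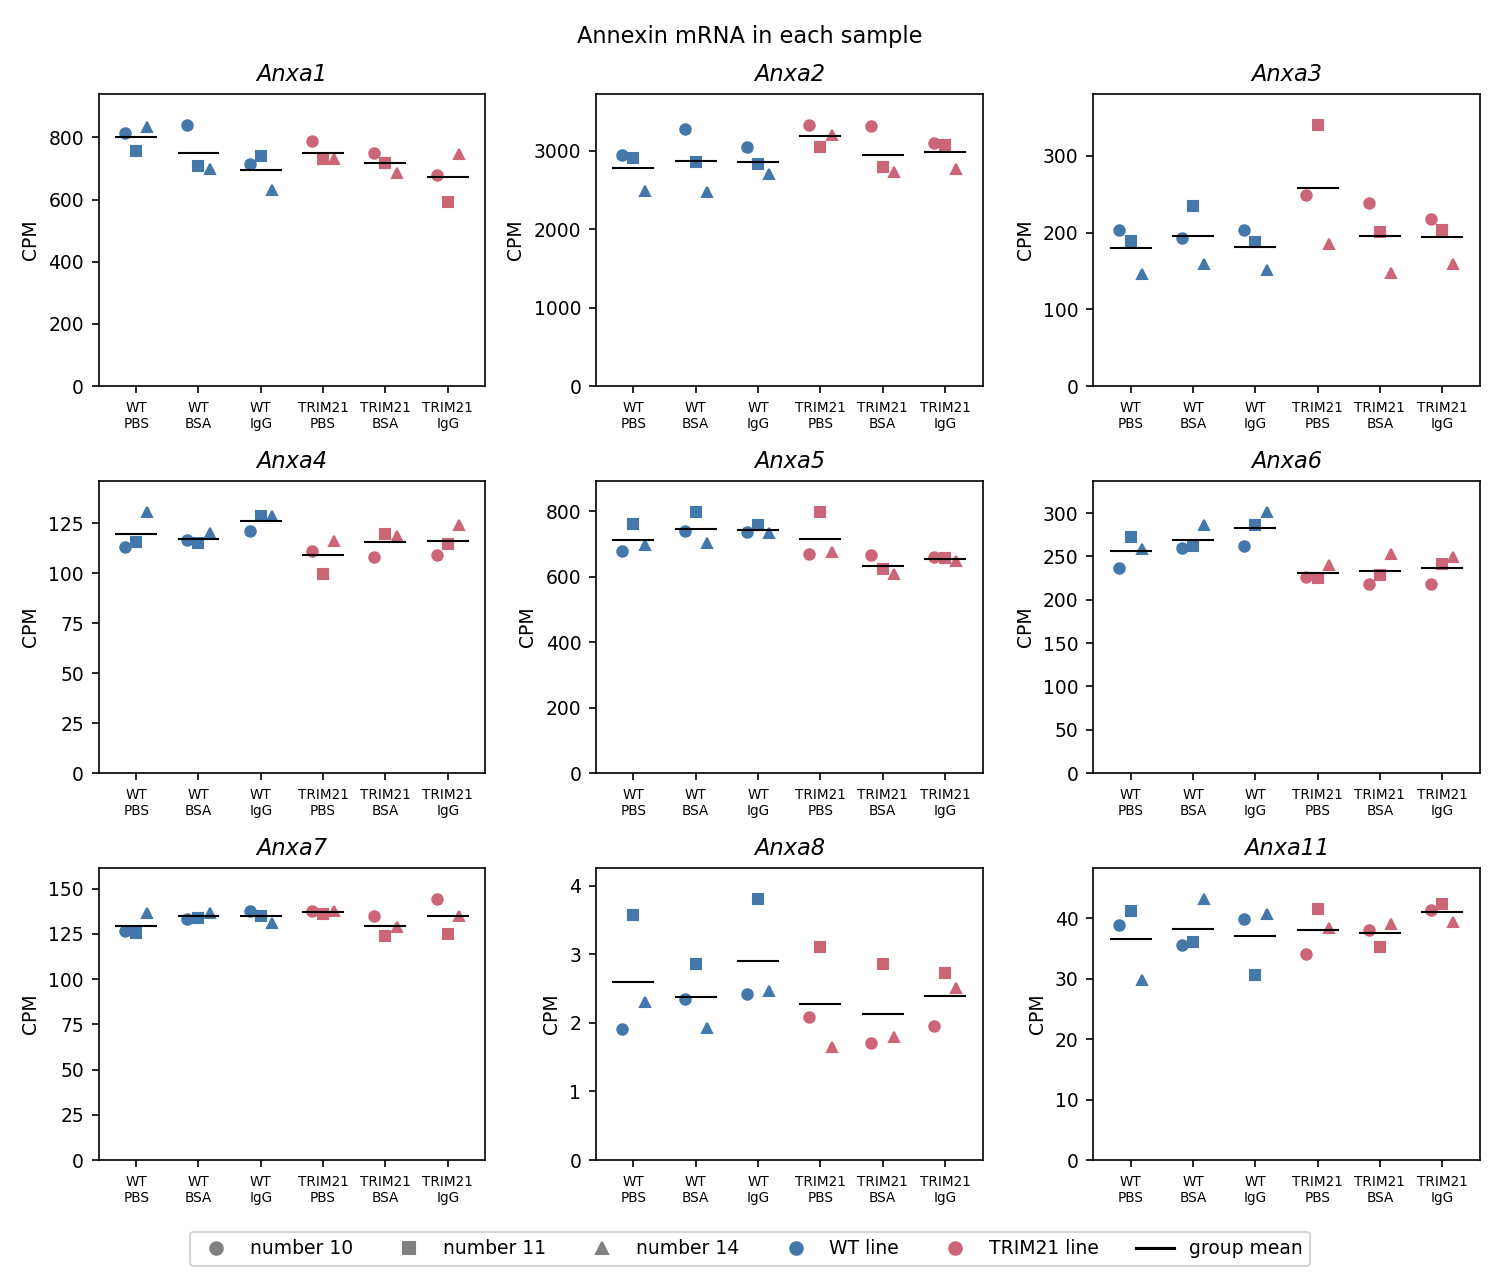
CPM of each annexin in each of the 18 samples, by line and treatment, with the title number shown by the symbol and a bar at each group mean. Anxa6 spans 218.1 to 253.3 CPM in the TRIM21 line and 236.3 to 301.5 CPM in the WT line, and Anxa7 keeps between 124 and 144.3 CPM.

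The first comparison asked which annexins differ between the TRIM21 line and its parent, averaged over the 3 treatments. Anxa6, which organises membrane and actin at the cell cortex, was the only one of the 9 that passed, and it was lower in the TRIM21 line. After PBS, Anxa6 measured 226.6, 224.6 and 240.4 CPM in the TRIM21 samples numbered 10, 11 and 14, and 236.3, 272.2 and 258.7 CPM in the WT samples. After BSA the TRIM21 samples measured 218.1, 228.6 and 253.3 CPM and the WT samples 259.6, 261.6 and 286.3 CPM. After IgG they measured 218.6, 241.4 and 249.2 CPM, against 262, 285.8 and 301.5 CPM in the WT line. Within BSA and within IgG the lines did not overlap, whereas after PBS the TRIM21 sample numbered 14 lay above the WT sample numbered 10. In all 9 sets of a TRIM21 and a WT sample with the same treatment and title number, the TRIM21 sample was the lower one. These sets describe direction only, since the title numbers were not taken to pair the samples.

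Over the 9 samples of each line Anxa6 averaged 233.4 ± 13.1 CPM in the TRIM21 line and 269.3 ± 19.4 CPM in the WT line (SD, n = 9 each). Anxa6 fell by 0.21 on the log2 scale (SE 0.053, 95% interval -0.32 to -0.095, adjusted p = 0.0247 from edgeR quasi-likelihood and Benjamini-Hochberg). That is a ratio of 0.868. Of all 12140 genes, 750 (6.18%) passed in this comparison, 581 of them lower (4.79%), so 1 of 9 annexins is close to what that background gives. The median log2 difference was -0.07 over the annexins and 0.01 over all genes tested.

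The Anxa6 call was not firm in this fit, which has no term for the title number. It passed in 11 of 18 fits that each left out 1 sample, with adjusted p-values from 0.0175 to 0.0669 and log2 differences from -0.23 to -0.19. It was lost without the TRIM21 samples PBS 10, BSA 10, BSA 11 or IgG 10, or the WT samples BSA 14, IgG 11 or IgG 14, with edgeR adjusted p-values of 0.0523, 0.0623, 0.0545, 0.0656, 0.0640, 0.0512 and 0.0669 in that order. By treatment, Anxa6 differed by -0.15 after PBS (edgeR adjusted p = 0.364), -0.21 after BSA (adjusted p = 0.436) and -0.26 after IgG (adjusted p = 0.381). None of these single-treatment comparisons called an annexin, where the background was 1.71%, 0.848% and 0.774% of genes. After PBS, Anxa3 had the largest difference of the 9, at 0.52 (edgeR adjusted p = 0.197). It was 0.26 without TRIM21 PBS 11 (adjusted p = 0.896) and 0.72 without TRIM21 PBS 14 (adjusted p = 0.0464), where it passed. Within title number 10 the Anxa6 difference was -0.20 (edgeR adjusted p = 0.195), within 11 it was -0.25 (adjusted p = 0.712), and within 14 it was -0.19 (adjusted p = 0.470). The sign and size were thus alike in every subset, and none of the subsets passed alone. With the title number as a term in the fit to all 18 samples, the edgeR adjusted p of Anxa6 was 0.0033. There 1462 genes passed in place of 750. Fits that left out 1 sample were not run with that term.

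**Figure D3:**
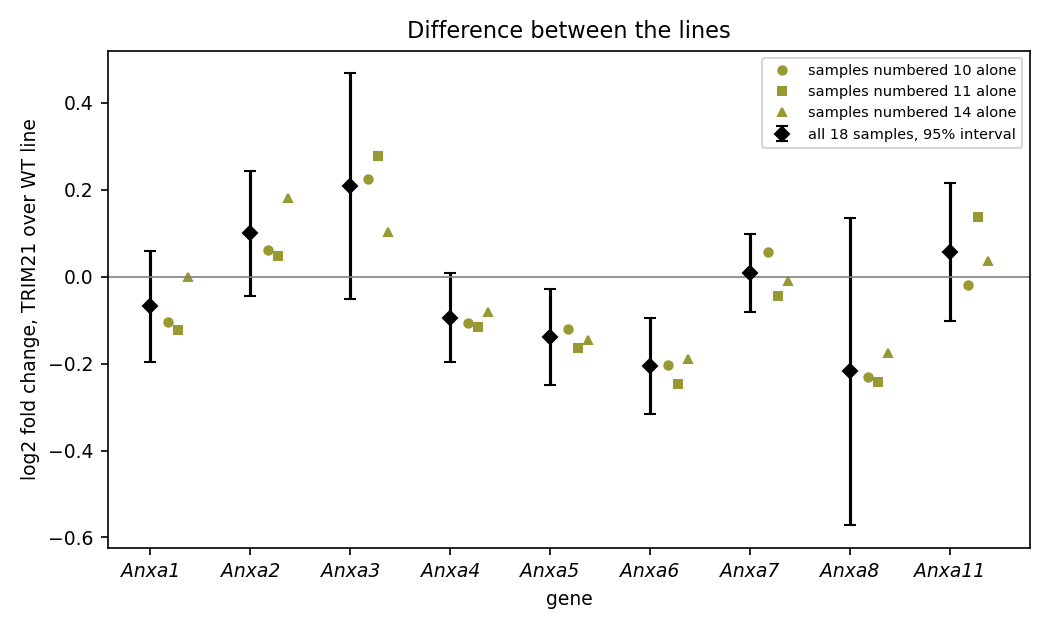
Log2 difference between the TRIM21 and WT lines for each annexin, averaged over treatments, with 95% intervals from the edgeR quasi-likelihood fit to all 18 samples (diamonds), and the same difference from the samples of each title number alone (other symbols). Only Anxa6, at -0.21, has an adjusted p-value under 0.05, and the Anxa5 interval (-0.25 to -0.027) also lies below 0.

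Of the 8 fibroblast markers 1 passed between the lines, where 6.18% of all genes did. In the TRIM21 line 7 had lower and 1 had higher values, and the median log2 difference was -0.26, against 0.01 over all genes tested. The one that passed was Thy1, and the higher one was Vim, an intermediate filament protein, at 0.08 (edgeR adjusted p = 0.463). Thy1, a surface glycoprotein of fibroblasts, stood at 508.5 ± 59.5 CPM in the TRIM21 line and 619.1 ± 42.5 CPM in the WT line (log2 difference -0.29, edgeR adjusted p = 0.0207). The summed CPM of the 8 fibroblast markers ran from 17400 to 30700 in the TRIM21 line and from 25900 to 35900 in the WT line. The sum of 17400 was that of TRIM21 PBS 11, which also had the lowest Thy1 value, 373.1 CPM. The Thy1 difference and the marker range without that sample are not given here. Summed epithelial markers ran from 0.238 to 0.583 and from 0.0479 to 0.479 CPM, and leukocyte markers from 4.76 to 8.65 and from 5.21 to 7.49 CPM. Summed endothelial markers ran from 0.608 to 2.60 and from 0.479 to 1.38 CPM, and skeletal muscle markers, with Myod1 and Myog at 0, from 0.380 to 0.989 and from 0.102 to 0.838 CPM. The part of these in the Anxa6 difference was not tested. In such bulk samples a change in the mix of cells and a change in RNA per cell cannot be told apart.

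Anxa5 came second. Its lowest, median and highest values were 608.3, 661.3 and 798.4 CPM in the TRIM21 line and 677.6, 736 and 798.1 CPM in the WT line. Anxa5 was lower in the TRIM21 line in 8 of the 9 sets with the same treatment and number, and the exception was PBS 11, whose TRIM21 sample was the highest of all 18. The log2 difference was -0.14 (SE 0.053, edgeR adjusted p = 0.137), and without the TRIM21 PBS sample numbered 11 it was -0.18 (adjusted p = 0.0367), which passes. Anxa5 therefore lay on either side of the threshold depending on 1 library.

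The other 7 members did not pass. Anxa4 ran from 99.8 to 124 CPM (median 114.7) in the TRIM21 line and from 112.9 to 130.7 (median 119.9) in the WT line, with overlap, and differed by -0.09 (SE 0.049, edgeR adjusted p = 0.276). Anxa3 differed the other way, by 0.21 (SE 0.12, adjusted p = 0.343), and by 0.12 without the TRIM21 PBS sample numbered 11, so that library moved it by more than 1.5 times. Anxa2 was higher in 8 of the 9 sets, at 3043 ± 228.7 against 2838 ± 256.1 CPM (SD, n = 9 each), and its log2 difference of 0.10 (SE 0.069, edgeR adjusted p = 0.418) did not pass. It was 0.07 without TRIM21 BSA 10 and 0.06 without WT BSA 14. Anxa8 differed by -0.22 (SE 0.17, adjusted p = 0.477), with the widest interval of the 9, from -0.57 to 0.14, and by -0.12 without WT PBS 11 or -0.14 without WT IgG 11. For Anxa1 the difference was -0.07 (95% interval -0.20 to 0.059), for Anxa11 0.06 (-0.10 to 0.22) and for Anxa7 0.01 (-0.082 to 0.099; 0.003 without TRIM21 PBS 11). The Anxa11 value rested on single libraries, at 0.03 without TRIM21 PBS 11 or WT BSA 10, 0.01 without WT PBS 14 or WT IgG 11 and 0.09 without WT PBS 11. The Anxa7 interval is the narrowest, and it leaves room for a change of at most 0.10 on the log2 scale.

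The second set of comparisons asked whether the electroporated protein altered annexin mRNA, as an antibody in the cytosol is the ligand that TRIM21 binds. None of the 9 annexins passed in any of the 6 comparisons within a line, and the background was 0% of 12140 genes in each by the edgeR quasi-likelihood test. In that fit, which has no term for the title number, no annexin had an unadjusted p under 0.05 in these 6, where 45 to 713 of 12140 genes had one. The median log2 difference for IgG against PBS was -0.03 over the annexins in the TRIM21 line, where it was 0.01 over all genes, and 0.06 in the WT line, where it was -0.001 over all genes. The IgG against PBS and BSA against PBS comparisons share their PBS samples and are not independent.

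In the TRIM21 line the smallest unadjusted p for IgG against PBS belonged to Anxa3, an annexin known from neutrophils and vessel-forming cells. Anxa3 measured 249.1, 340.5 and 184.9 CPM after PBS, 238.8, 201 and 147.5 after BSA and 217.7, 203.7 and 159.6 after IgG (title numbers 10, 11 and 14). The PBS sample numbered 11 stood above all others, and the 3 treatments overlapped. The log2 difference between IgG and PBS was -0.41 (SE 0.21, 95% interval -0.87 to 0.036, edgeR adjusted p = 0.724), and without that sample it was -0.14 (adjusted p = 1). In the WT line Anxa3 measured 203.2, 189.1 and 146.4 CPM after PBS, 193, 234.3 and 159.7 after BSA, and 203.1, 187.6 and 151.2 after IgG. The matching WT difference was 0.01, and the test of the difference between the lines gave -0.42 (SE 0.30, edgeR adjusted p = 0.972). Its value without the TRIM21 PBS sample numbered 11 is not given here, although the TRIM21 part alone moved from -0.41 to -0.14 without that sample.

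For BSA against PBS in the TRIM21 line the smallest p was that of Anxa5. Its values were 668.8, 798.4 and 674.5 CPM after PBS and 667.8, 624.1 and 608.3 CPM after BSA, so all 3 BSA samples lay below all 3 PBS samples. The log2 difference was -0.17 (SE 0.091, edgeR adjusted p = 0.841), and -0.07 without the PBS sample numbered 11. After IgG the TRIM21 line measured 661.3, 656.9 and 648.7 CPM of Anxa5. In the WT line Anxa5 stood at 677.6, 761.1 and 696.7 CPM after PBS, 740.1, 798.1 and 701.8 after BSA and 736, 759.3 and 735.2 after IgG, with overlap throughout. For IgG against BSA in the TRIM21 line the smallest p belonged to Anxa11, at 0.13 (SE 0.13, edgeR adjusted p = 1).

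In the WT line Anxa1 had the smallest p against PBS for both proteins. Anxa1 measured 813.2, 758 and 834.9 CPM after PBS, 840.7, 709.4 and 697.3 after BSA, and 713.1, 741.5 and 631.3 after IgG. Each IgG sample lay below each PBS sample, while the BSA samples overlapped both. The log2 difference was -0.21 for IgG (SE 0.10, 95% interval -0.43 to 0.015, edgeR adjusted p = 1) and -0.10 for BSA (SE 0.10, adjusted p = 0.982). In the TRIM21 line Anxa1 measured 788.1, 730 and 729.7 CPM after PBS, 751.1, 717 and 686.5 after BSA and 680.7, 593 and 747.6 after IgG. Here the IgG and PBS samples overlapped through IgG 14. Averaged over both lines, IgG against PBS gave -0.18 for Anxa1 (SE 0.074, 95% interval -0.34 to -0.023, edgeR unadjusted p = 0.0266, adjusted p = 0.846). Anxa1 was the one annexin of 9 with an unadjusted p under 0.05 in that comparison, where 670 of 12140 genes had one. The remaining WT comparison, IgG against BSA, had its smallest p at Anxa4, with 0.11 (SE 0.085, edgeR adjusted p = 0.767).

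Across both lines the averaged comparisons and the 3 tests of a difference between lines also called no annexin, with a background of 0% in each. Leaving out Anxa3 and Anxa8, the most variable members, the 95% intervals of the within-line differences lay between -0.43 and 0.40 on the log2 scale. A change of 1 log2 unit, a doubling, lay outside every one of those intervals, whereas smaller changes inside the intervals could not be told from none with 3 samples a group.

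**Figure D4:**
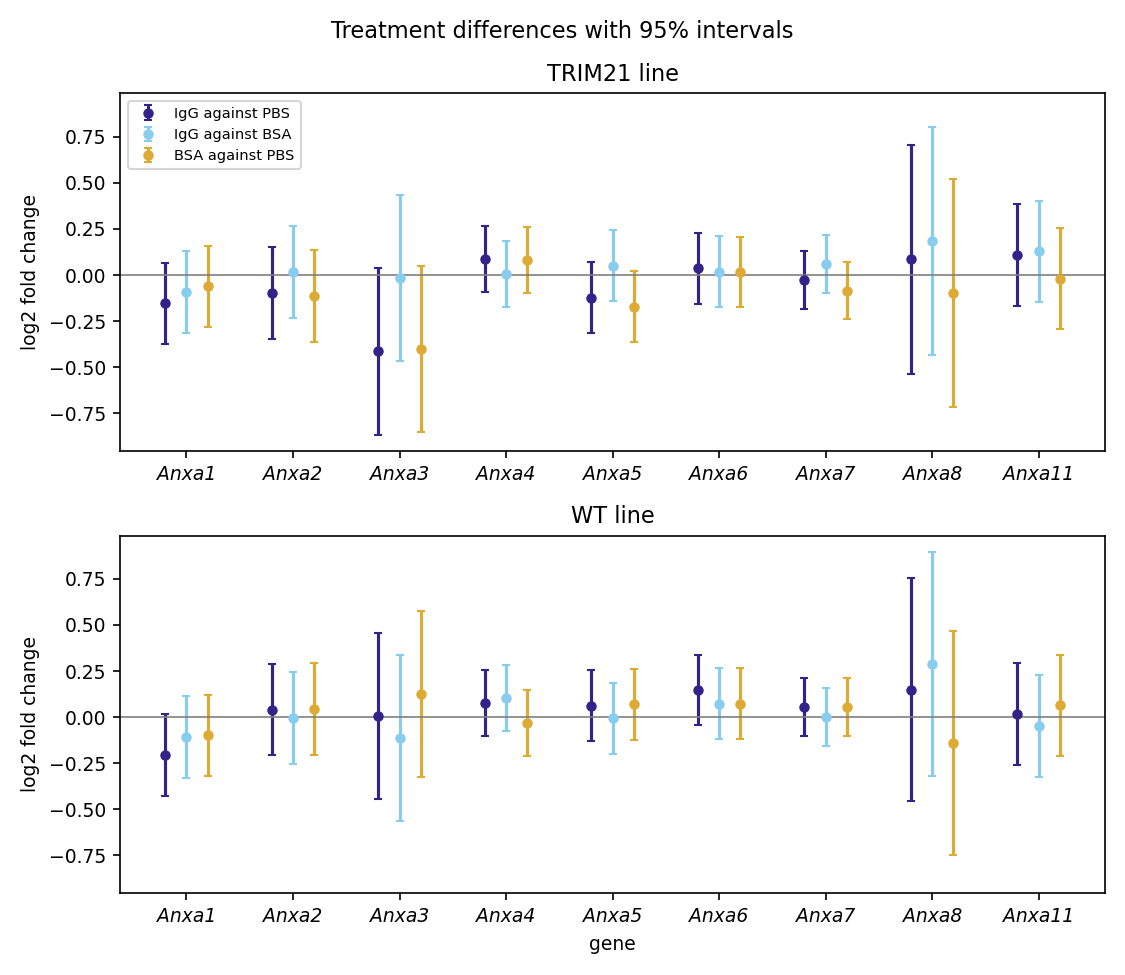
Log2 differences between treatments within each line for the 9 annexins, with 95% intervals from the edgeR quasi-likelihood fit. No difference has an adjusted p-value under 0.05, and the largest in size is that of Anxa3 for IgG against PBS in the TRIM21 line, at -0.41.

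Another pattern followed the title numbers rather than the line or the treatment. The comparison was chosen after seeing the data. It adds the number as a term beside the group, so each number is compared within the 6 groups. Anxa8, Anxa3 and Anxa2 passed in at least 1 of the 3 comparisons between numbers. Of 12140 genes, 3.8% passed for 11 against 10, 8.44% for 14 against 10 and 5.23% for 14 against 11, and the annexins gave 1, 2 and 2 of 9. The 3 comparisons share samples.

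Anxa8, an annexin abundant in stratified epithelia, was highest at number 11 in 6 of 6 groups. In the TRIM21 line it measured 2.09, 3.10 and 1.65 CPM after PBS (numbers 10, 11 and 14), 1.71, 2.86 and 1.80 after BSA and 1.96, 2.72 and 2.51 after IgG. In the WT line it measured 1.91, 3.57 and 2.30 CPM after PBS, 2.35, 2.86 and 1.92 after BSA and 2.42, 3.81 and 2.46 after IgG. All 6 samples numbered 11 (2.72 to 3.81 CPM) lay above the 12 others (1.65 to 2.51 CPM). The log2 difference was 0.60 for 11 against 10 (SE 0.12, edgeR adjusted p = 0.0155) and -0.59 for 14 against 11 (SE 0.12, adjusted p = 0.0153), while 14 against 10 gave 0.01 (adjusted p = 0.960). The first was lost without TRIM21 BSA 10 (adjusted p = 0.0511), TRIM21 IgG 10 (0.0504) or WT PBS 10 (0.0510), and the second without TRIM21 PBS 14 (0.0651) or WT BSA 14 (0.0593), all by the edgeR test.

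Anxa3 was lowest at number 14 in 6 of 6 groups. The samples numbered 14 ran from 146.4 to 184.9 CPM, below all those numbered 10 (193 to 249.1 CPM) and 11 (187.6 to 340.5 CPM). Anxa3 fell by 0.46 on the log2 scale from 10 to 14 (SE 0.082, edgeR adjusted p = 0.00458) and by 0.49 from 11 to 14 (SE 0.082, adjusted p = 0.00688). Both calls held in 18 of 18 fits that left out 1 sample. Without the TRIM21 PBS sample numbered 11 they were -0.45 and -0.39.

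Anxa2 and its partner S100a10, a small calcium-insensitive S100 protein that joins Anxa2 into a heterotetramer, were both highest at number 10 in 6 of 6 groups. Anxa2 averaged 3170 ± 162.1 CPM at number 10, 2921 ± 117.1 at 11 and 2729 ± 263.6 at 14 (SD, n = 6 each). From 10 to 14 Anxa2 fell by 0.22 (SE 0.062, edgeR adjusted p = 0.0408), but this call held in only 4 of 18 fits that left out 1 sample, namely those without a TRIM21 PBS sample or without WT PBS 11, and adjusted p-values ran from 0.0315 to 0.170. S100a10 averaged 967.3 ± 56.7 CPM at number 10, 835.4 ± 76.4 at 11 and 702 ± 103.8 at 14 (SD, n = 6 each). It was lowest at 14 in 6 of 6 groups and fell by 0.47 from 10 to 14 (edgeR adjusted p = 0.00188), in 18 of 18 such fits. From 11 to 14 it fell by 0.26 (adjusted p = 0.0488), which held in 3 of 18 and was -0.24 without TRIM21 PBS 11 (adjusted p = 0.141). Anxa6 went the other way and lay at the threshold, at 0.16 for 14 against 10 (SE 0.050, edgeR adjusted p = 0.0542). It passed under 4 of 5 other settings and in 7 of 18 fits that left out 1 sample, namely those without TRIM21 PBS 10, PBS 11, BSA 11 or IgG 11, or WT PBS 11, PBS 14 or BSA 10. Without TRIM21 PBS 11 it was 0.18 (edgeR adjusted p = 0.0260). Anxa6 was highest at 14 in 5 of 6 groups.

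**Figure D5:**
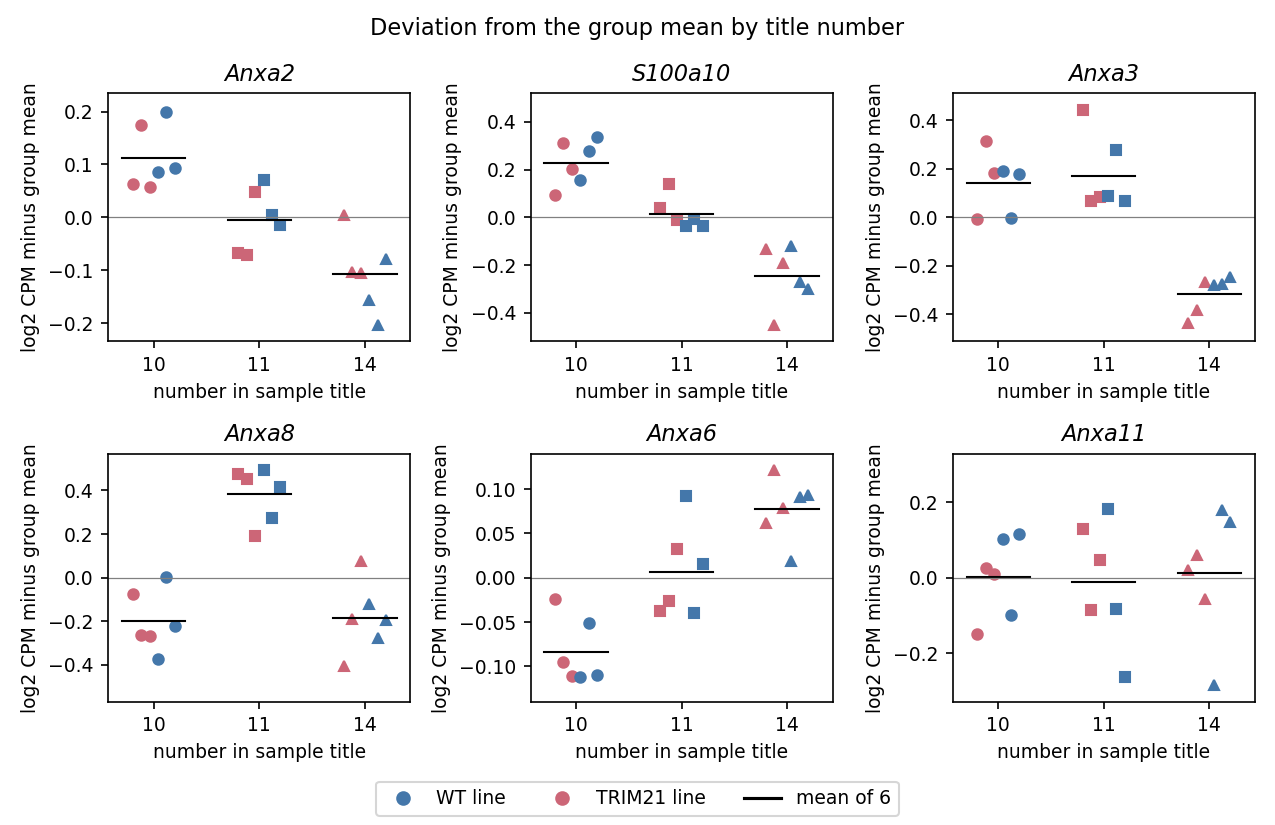
Log2 CPM of each sample minus the mean of its group, by title number, for Anxa2, S100a10, Anxa3, Anxa8, Anxa6 and Anxa11, with 1 point per sample coloured by line and a bar at the mean of 6. Anxa8 peaks at 11 in 6 of 6 groups, Anxa3 is lowest at 14 in 6 of 6, and S100a10 is highest at 10 and lowest at 14 in 6 of 6, whereas Anxa11 shows no such order.

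Other measures are given here by title number, and their part in these results was not tested. The summed fibroblast markers were 25500 to 31400 CPM at 10, 17400 to 29000 at 11 and 28500 to 35900 at 14. The leukocyte sum was 4.76 to 6.28, 6.29 to 8.65 and 5.56 to 7.49 CPM, with Emr1 and Cd3e at 0. The epithelial sum was 0.238 to 0.479, 0.203 to 0.492 and 0.0479 to 0.583 CPM. The endothelial sum was 0.801 to 1.28, 0.894 to 2.60 and 0.479 to 1.13 CPM, and the skeletal muscle sum 0.380 to 0.913, 0.102 to 0.989 and 0.335 to 0.838 CPM. Fn1, the matrix protein fibronectin, fell by 0.68 from 10 to 11 (edgeR adjusted p = 0.00435). Col3a1, a fibrillar collagen, rose by 0.76 from 11 to 14 (edgeR adjusted p = 0.0144). TRIM21 PBS 11 was lowest of the samples numbered 11 for Fn1 (1969 CPM), for Col3a1 (1332 CPM) and for the fibroblast sum (17400 CPM). These results are not given here without that sample. Over all genes tested, 3.8% passed for 11 against 10 and 5.23% for 14 against 11. These genes were picked from the 8 fibroblast markers after their values were seen, and the number of those passing is not given here. Other markers of the list went the other way by mean CPM. Lox (4958 to 5169) and Thy1 (559.7 to 567) rose from 10 to 11. Vim (6452 to 6114) and Thy1 (567 to 564.7) fell from 11 to 14. Reads in no gene feature were 13.1% to 17% at 10, 15% to 18.3% at 11 and 15.2% to 18.8% at 14. The ranges of these sums and reads overlapped between numbers, except the leukocyte sums at 10 and 11.

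How the variation of each annexin divided was described by the share of its sum of squares of log2 CPM. The line took 57.8% for Anxa6 and 38.3% for Anxa5, against a median of 7.67% over all genes. The title number took 67.2% for Anxa8, 55.4% for Anxa3 and 51.8% for Anxa2, against a median of 18.3%. Treatment took 36.0% for Anxa1, against a median of 6.25%, and under 14% for every other member. A further term, for treatment effects that differ between the lines, took 25.2% for Anxa7 and 20.5% for Anxa5, against a median of 10.4%. For Anxa11 it took 6.3%, and 85% lay in none of these terms.

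Over the 18 samples, log2 CPM of Anxa2 and S100a10 correlated with Pearson's r = 0.719 (permutation p = 0.0007, adjusted over 2 relations 0.0014) and Spearman's rho = 0.827 (permutation p = 9e-05, adjusted 0.00018). Without the 2 samples farthest from the Anxa2 median r was 0.784 (n = 16). Within title numbers r was 0.568, 0.215 and 0.327 (n = 6 each), all lower than the pooled value. The permutations exchanged all 18 samples freely, so the p takes no account of the title number, which both genes followed. Anxa1 and S100a11, its S100 partner, gave r = -0.083 (permutation p = 0.742, adjusted 0.742) and rho = 0.059 (permutation p = 0.817, adjusted 0.817). Without 2 samples r was -0.081, and within numbers it was -0.081, 0.353 and 0.339. The pairs thus differed in their pooled r, a difference that was not tested.

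Of 12 listed annexin partners 7 were tested, and none passed between the lines, where 6.18% of all genes did (median log2 difference 0.003, smallest edgeR adjusted p = 0.362). S100a10 differed by 0.003 (SE 0.11, adjusted p = 0.989) and S100a11 by 0.08 (SE 0.072, adjusted p = 0.566). None of the 7 passed in a treatment comparison. Between title numbers, S100a10 and S100a6, another S100 protein, were the partners that passed (2 of 7 for 14 against 10, where 8.44% of all genes did), with S100a6 lower by 0.33 at 14 than at 10 (edgeR adjusted p = 0.0353). The formyl peptide receptors through which Anxa1 acts were nearly silent, with Fpr1 and Fpr3 at 0 counts in all samples and Fpr2 at 0 to 3 counts. A count of 0 allows up to 0.0981 to 0.152 CPM here (3 counts, counting error only).

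Of 22 listed membrane repair genes, among them Pdcd6 that is also a listed partner, 19 were tested, and none passed between the lines, where 6.18% of all genes did, or in any treatment comparison, where 0% did. Dysf, the repair protein dysferlin, differed by -0.20 between the lines (edgeR adjusted p = 0.169), Myof, its relative myoferlin, by 0.15 (adjusted p = 0.182), and Smpd1, acid sphingomyelinase, by -0.16 (adjusted p = 0.120). Dysf rose by 0.28 from number 10 to 14 (edgeR adjusted p = 0.0300), 1 of 19 where 8.44% of all genes passed. Of the annexins outside the 9, Anxa9 was tested at 4.89 ± 0.608 CPM (SD, n = 18) and differed by 0.05 between the lines (adjusted p = 0.802), whereas Anxa10 had 0 counts in all samples and Anxa13 at most 1.

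Genes whose log2 CPM followed the 2 strongest annexins most closely over the 18 samples are given as a description. For Anxa2 these were Coq2, an enzyme of coenzyme Q synthesis (r = 0.870), Ddx39b, an RNA helicase (r = 0.869), and Atp5a1, a subunit of ATP synthase (r = 0.863). For Anxa5 they were Btbd11 (r = 0.872), Fhl1, a LIM domain protein (r = 0.858), and Mmp3, a matrix protease (r = 0.857), of which Mmp3 stood at only 0.446 CPM. The points share lines, title numbers and libraries, and the Anxa5 set also differed between the lines, with log2 differences of -0.33, -1.26 and -1.22.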

How the data were processed

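The authors deposited 1 table per sample, which lists unnormalized read counts by gene symbol. Per the submitters' processing notes, bcl2fastq 2.19.1.403, FastQC 0.11.5, STAR 2.5.1b, HTSeq 0.6.0 and DESeq2 1.6.3 and the build mm10 are named, with no order or role stated. Libraries were strand-specific and polyA-selected, per the labels' protocols. The annotation and the strand setting of counting are not given in the sources used here. Closing lines for reads given to no gene were left out of library sizes and tests, and no per-sample column was unused.

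From these counts, edgeR 4.0.16 in R 4.3.3 fitted 1 mean per group to all 18 samples by quasi-likelihood, after filterByExpr (minimum count 10, minimum total 15) and TMM scaling (factors 0.977 to 1.03). P-values were adjusted by Benjamini-Hochberg over all 12140 genes in each comparison, with a threshold of 0.05, so every adjusted p is over all genes tested. Samples of the same group differed beyond counting noise (chi-square divided by its degrees of freedom, 11.0 to 85.9). Levels per kilobase used merged GENCODE M21 exons. Correlations used 100000 permutations, two-sided. Alternatives used DESeq2 1.42.0 and limma 3.58.1, among others. The procedure was tested on simulated data. The rule names all 9 annexins, Trim21, members of the partner, repair and other-annexin lists that passed in any comparison, S100a10 and S100a11, in each within-line treatment comparison the annexin with the smallest p, and the 3 genes most like each of the 2 annexins highest per kilobase. Genes named outside it (Thy1, Fn1, Col3a1, Lox, Cd68, Emr1, Cd3e, Vim, Cdh5, Myod1, Myog, Fpr1, Fpr2, Fpr3, Myof, Smpd1, Anxa9, Anxa10, Anxa13) were chosen after their values were seen. The members and lists were chosen with earlier results of these data known.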

Additional observations from a re-analysis of the deposited data

Results flagged for a closer look

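Anxa5 in the TRIM21 PBS sample numbered 11 stood at 798.4 CPM, far from the other 8 samples of that line, of which the next highest was at 674.5 CPM. On the log2 scale the gap was 0.62 of the line's whole range. The 9 annexins in each of 2 lines (18 sets of samples) were examined in this way, and chance marks about 1 in 20. The same sample had the highest Anxa3 value of the 18, at 340.5 CPM.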

How the results depend on the processing

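Between the lines 1 annexin, Anxa6, passed with DESeq2 size factors, no low-count filter, at least 10 counts per sample, the DESeq2 Wald test, limma-voom, a GC offset and the title number as a replicate block (count 1). With the GC offset and the replicate block together, added after seeing the data, 3 passed, as Anxa3 (0.21, edgeR adjusted p = 0.0362) and Anxa5 (-0.14, adjusted p = 0.0320) joined Anxa6. With the block alone, adjusted p was 0.0033 for Anxa6, 0.0608 for Anxa5 and 0.0615 for Anxa3, and 1462 genes passed in place of 750. After PBS alone the block gave 1 annexin in place of 0, Anxa3 (0.51, adjusted p = 0.0186), and leaving out 1 sample gave 0 to 1. Within the lines the block left every treatment count at 0, with unadjusted p under 0.05 in 4 cases (TRIM21 line, Anxa3 for IgG and BSA against PBS and Anxa5 for BSA against PBS; WT line, Anxa1 for IgG against PBS; adjusted p 0.408, 0.546, 0.546 and 1). For these cases, for the block after PBS and for the GC offset with the block, the share over all genes is not given here. Those counts therefore have no background beside them. The numbers were not taken to pair the samples, since the correlation of deviations from the group means exceeded 0.1 in only 32 of 45 pairs with the same number (mean 0.218, range -0.323 to 0.578), although 16 of 18 samples correlated best with their own number. Pairs with different numbers had a mean of -0.109. Taking deviations from group means itself pulls that value below 0, so it adds no separate evidence. With samples of 1 number alone (this count, like the GC offset alone, was added after seeing the data) the count was 0 for each number, where 3 samples stood against 3. Leaving out 1 sample gave 0 to 2 annexins. Signs reversed for Anxa11 within number 10 (-0.019) and for Anxa7 within 11 (-0.044) and within 14 (-0.0096), and Anxa7 ran from -0.0091 to 0.018 when 1 sample was left out. In the treatment comparisons and the tests of whether these differ between lines the count was 0 in all alternatives and in all fits without 1 sample. Between title numbers, leaving out 1 sample gave 0 to 1 annexins for 11 against 10, 1 to 3 for 14 against 10 and 1 to 2 for 14 against 11. For 14 against 10, 3 annexins in place of 2 passed under DESeq2 size factors, at least 10 counts per sample, the DESeq2 Wald test and limma-voom, with Anxa6 the third (0.17, 0.16, 0.17 and 0.16; adjusted p = 0.0469, 0.0489, 0.00744 and 0.0472), and 2 without a filter (Anxa6 adjusted p = 0.117). The S100a10 difference of 14 against 11 missed the threshold with DESeq2 size factors (-0.26, adjusted p = 0.0539) and with the minimum of 10 counts (-0.25, adjusted p = 0.0509). Where no value shows it, the cause was not tested. Anxa8, at 43 to 88 counts, is the member whose precision depth limits most.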
